A study of Mus musculus with 45 samples.

Results

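Lgr5 is a receptor on stem cells at the base of the intestinal crypt, and the 5 libraries described here come from adult ileal stem cells sorted shortly after tamoxifen was given to conditional Lgr5 knockout mice and to their controls. They were chosen as all sorted-cell libraries of the tamoxifen-treated Lgr5-GFP-CreERT2 line, 5 of the 45 samples in the series and of its 15 sorted-cell libraries. Both genotypes carried the Lgr5-GFP-CreERT2 knock-in, which inactivates 1 Lgr5 allele and puts GFP and an inducible Cre under the Lgr5 promoter, together with the Rosa26R-Tomato reporter of recombination. Control mice (HE, Lgr5-Cre/+) had a wild-type second allele, and conditional knockout mice (cKO, Lgr5-Cre/flox) had a floxed second allele that Cre turns into a null. Each library was 1 mouse of 2 months, given 2 mg tamoxifen into the peritoneum and harvested after 48 hours, and the cells sorted from ileal crypts were positive for both GFP and Tomato. HE cells thus also lacked 1 functional Lgr5 copy and also met tamoxifen and active Cre, and the sort keeps only cells in which the Lgr5 promoter was active.

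The genotypes of the libraries are in conflict between sources. The deposited labels call 3 libraries cKO and 2 HE, but the columns of the study's published list for this comparison place the library labelled Adult_HE_Sample_1 with the cKO mice and the library labelled Adult_cKO_Sample_2 with the HE mice. The results below follow the published genotypes, and the result by the labels is given as a check. Throughout, cKO values are listed in the order of the libraries labelled Adult_HE_Sample_1, Adult_cKO_Sample_1 and Adult_cKO_Sample_3, and HE values in the order of the libraries labelled Adult_HE_Sample_2 and Adult_cKO_Sample_2. Values are CPM, the deposited unit, which is the number of reads of a gene scaled to the same library total. Every log2 fold change is a difference of log2(CPM + 1) between cKO and HE, given with its standard error, and adjusted p-values are those of limma after Benjamini-Hochberg adjustment over all tested genes.

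In the crypt, Wnt signals from Paneth cells and stroma keep Lgr5-positive cells dividing, and R-spondins bound by Lgr4, Lgr5 and Lgr6 strengthen the Wnt signal by holding back the ubiquitin ligases Rnf43 and Znrf3. Daughter cells become absorptive enterocytes or secretory cells, among them goblet, enteroendocrine, tuft and Paneth cells, the last of which stay at the crypt base and secrete lysozyme and alpha-defensins. Immediate early genes such as Fos, Jun and Egr1 are transcribed within minutes of growth factor, cytokine or stress signals, with no need for new protein, and they are also known to be induced when tissue is dissociated into single cells.

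The 2 genotypes differed in library depth and in the number of genes detected. The cKO libraries held 9055356, 8122504 and 9984676 reads and the HE libraries 3084694 and 5717575 reads, as recovered from the CPM steps. In cKO 32121, 35792 and 42154 genes were above 0, and in HE 22675 and 24944. Olfactory and vomeronasal receptor genes, which are known chiefly from nasal sensory neurons, were above 0 for 549, 863 and 1341 of 1643 in cKO and for 62 and 82 in HE. After thinning each library to the same 3084687 reads, all genes above 0 numbered 25888, 29429 and 34604 in cKO against 22675 and 22919 in HE, and receptor genes 265, 483 and 906 against 62 and 63. All 3 cKO libraries thus lay above both HE libraries in depth as deposited, and in these counts before and after thinning. In the deposited values depth, the number of genes detected and genotype cannot be told apart. After thinning, which makes depth equal, the number of genes detected still followed genotype. Sex, read from Xist and Ddx3y, did not follow genotype: the libraries labelled Adult_HE_Sample_1 and Adult_HE_Sample_2 were male and the other 3 female, which puts both sexes in each genotype, and genes on X and Y were left out. The epithelial markers Epcam, Cdh1, Krt8 and Vil1 summed to 3814 to 4304 CPM in cKO and 3404 to 3479 CPM in HE, while summed markers in cKO and HE were 8.55 to 26.95 CPM against 3.65 to 10.9 CPM for mesenchyme, 5.25 to 17.95 CPM against 2 to 6.35 CPM for immune cells and 2.95 to 9.25 CPM against 3.35 to 5.85 CPM for endothelium.

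**Figure D1:**
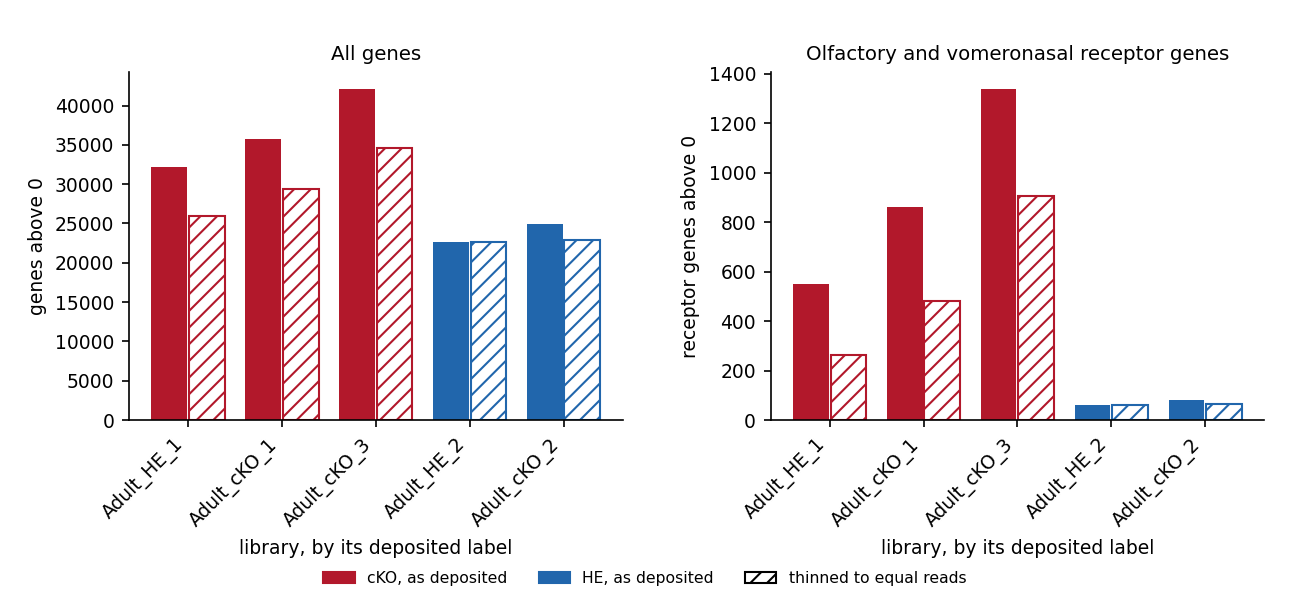
Number of genes (left) and of olfactory and vomeronasal receptor genes (right) above 0 CPM in each of the 5 adult ileum libraries, named by their deposited labels and coloured by published genotype, as deposited (filled bars) and after thinning to the same number of reads (hatched bars). The 3 cKO libraries stand above the 2 HE libraries in both panels, with the receptor genes of the library labelled Adult_cKO_Sample_3 highest at 1341 of 1643.

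Lgr5 itself could not serve as a check on the genotypes. Its transcript measured 52.8, 89.2 and 90.7 CPM in cKO against 87.6 and 109 CPM in HE, and the genotypes overlapped (log2 fold change -0.37 ± 0.22, adjusted p = 0.362). The counts cover the whole gene (GRCm38, chr10:115450311-115587780, minus strand), so they include transcripts that have lost the floxed exon, and a deletion of that exon cannot be seen in them. In adult ileum stem cells of the Lgr5-DTReGFP line, another knock-in that was also heterozygous and for which no tamoxifen is stated, Lgr5 stood at 339 and 356 CPM. Of the genes within 20 Mb of Lgr5 on either side, 12 of 240 tested were called, or 5.0%.

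Of 19249 genes tested outside X and Y, 839 passed the limits of the study, a false discovery rate of 0.1 and a fold change of 1.5, which is 4.36% of those tested. In cKO 541 genes were higher (2.81%) and 298 lower (1.55%), and 593 of the called genes were protein coding. With the library scaling changed to TMM, which moved the median over all genes from 0.13 to 0.0055, 299 were higher and 255 lower, so that higher genes made up 54.0% of calls in place of 64.5%. On recovered reads the split was 130 higher and 97 lower with edgeR and 451 higher and 449 lower with DESeq2. In all 839 called genes the genotypes did not overlap, whereas among all tested genes 26.7% lay higher and 12.9% lower in every cKO library than in every HE library. The count rested on single libraries: it was 90 without the library labelled Adult_HE_Sample_2, 140 without Adult_cKO_Sample_2, 306 without Adult_cKO_Sample_3, 796 without Adult_cKO_Sample_1 and 2103 without Adult_HE_Sample_1. With sex as a term it was 754, with reads thinned to equal depth 729, and with the level of receptor genes per kilobase subtracted from every gene 671. Replicates were separate mice, and log2 values correlated across genes at 0.975 to 0.982 within cKO, 0.980 between the 2 HE libraries and 0.948 to 0.976 between genotypes, where genes are not independent points.

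**Figure D2:**
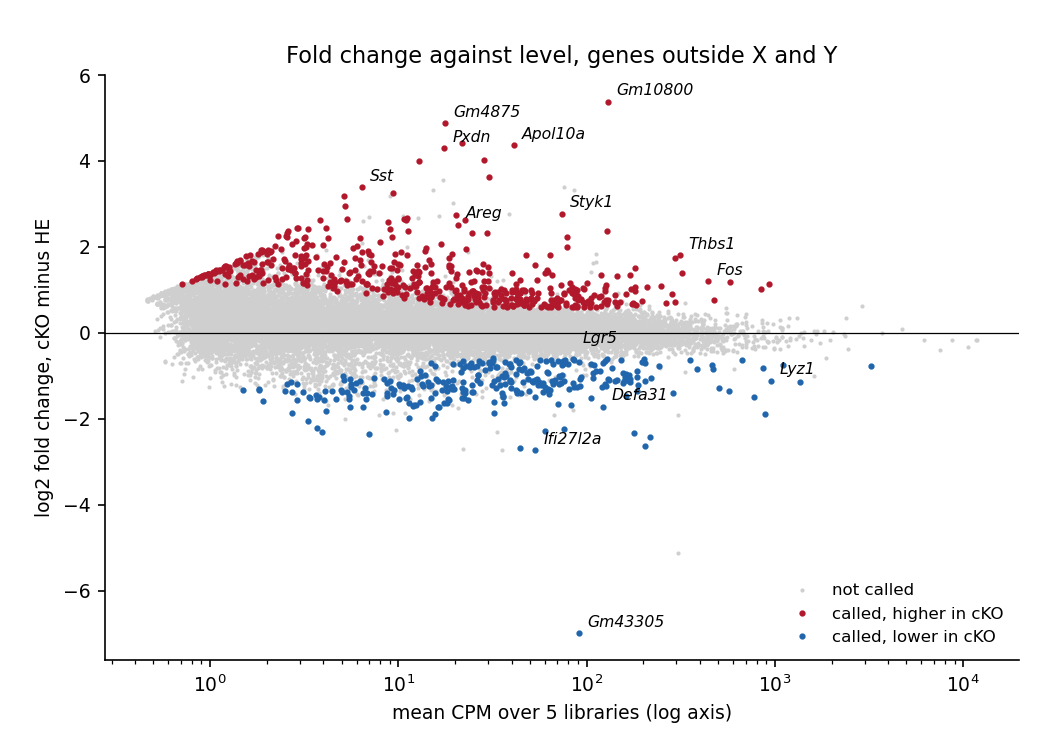
Log2 fold change (cKO minus HE) against the mean CPM of the 5 libraries on a log axis, 1 point for each of 19249 tested genes, with the 541 genes called higher in red and the 298 called lower in blue. Low genes lean upward: the median fold change was 0.38 below 2 CPM and -0.02 from 200 CPM upward.

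The fold change leaned upward at low levels. Among genes with a mean below 2 CPM the median log2 fold change was 0.38 with 78 called higher and 4 lower, whereas from 200 CPM upward it was -0.02 with 13 higher and 22 lower. Gene groups are given with their median and with their most abundant members. Over all tested genes 2.81% were called higher and 1.55% lower, to be set beside the count of each list. The lists and their members were chosen with earlier results of these data known. Their counts therefore describe these genes and are no independent test.

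Most of the immediate early genes tested rose in cKO. Of 39 tested genes of the immediate early and AP-1 list, 27 rose in cKO and none fell, against 2.81% called higher over all genes, and the list's median log2 fold change was 0.95 against 0.13 over all genes. With TMM scaling 23 rose, with edgeR 19 and with DESeq2 24, and 1 fell with DESeq2. When every gene with a nonzero library was tested, 2 of 40 rose. With reads thinned to equal depth 25 rose and with the receptor gene level subtracted 26. The most abundant were Jun, which encodes the main partner of Fos in the AP-1 transcription factor, at 816, 1236 and 1152 CPM in cKO against 453 and 586 CPM in HE (log2 fold change 1.03 ± 0.18, adjusted p = 0.0377), and the zinc finger factor gene Egr1 at 520.1, 941 and 771 CPM in cKO against 302 and 339 CPM in HE (log2 fold change 1.17 ± 0.21, adjusted p = 0.0377). Fos measured 525, 583 and 613 CPM in cKO against 232 and 267 CPM in HE (log2 fold change 1.20 ± 0.12, adjusted p = 0.00305), a narrow spread in both genotypes. Its relative Fosb measured 327, 395 and 499 CPM in cKO against 93.1 and 152 CPM in HE (log2 fold change 1.74 ± 0.22, adjusted p = 0.0105). The stress-responsive factor gene Atf3 lay at 339, 486 and 457 CPM in cKO against 165 and 157 CPM in HE (log2 fold change 1.38 ± 0.15, adjusted p = 0.00498).

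Among further members of the list the largest change was in Cyr61, a secreted matricellular protein and known YAP target, at 77.6, 122 and 136 CPM in cKO against 17.9 and 39.2 CPM in HE (log2 fold change 1.99 ± 0.31, adjusted p = 0.0248). Krüppel-like factor genes rose as well, Klf2 from lower levels (10.8, 24.3 and 27.0 CPM against 4.25 and 4.05 CPM, log2 fold change 1.98 ± 0.35, adjusted p = 0.0377) and Klf6 with little spread (200.2, 259 and 278 CPM against 80.8 and 89.4 CPM, log2 fold change 1.51 ± 0.15, adjusted p = 0.00305). Jund, a Jun family gene, had the smallest change of those named (306, 369.5 and 378 CPM against 158 and 218 CPM, log2 fold change 0.91 ± 0.15, adjusted p = 0.0314). In each of these genes the lowest cKO library stood above the higher HE library, and no called gene of any list overlapped between genotypes. In the Lgr5-DTReGFP ileum libraries, which differ in line and treatment and enter no test, Fos stood at 457 and 345 CPM, between the genotypes, Klf6 at 264 and 185 CPM, near cKO, and Fosb at 187 and 159.6 CPM and Atf3 at 191 and 185 CPM, between the genotypes and nearer to HE. Jun at 505.5 and 468.6 CPM lay within the HE range, Jund at 111.9 and 92.95 CPM below it and Klf2 at 5.85 and 1.65 CPM around it. Egr1 at 408.65 and 502.7 CPM lay between the genotypes, and Cyr61 at 85.9 and 49.45 CPM above HE. The number of list members called was 6 without the library labelled Adult_HE_Sample_2, 13 without Adult_cKO_Sample_2, 17 without Adult_cKO_Sample_3, 23 without Adult_cKO_Sample_1 and 31 without Adult_HE_Sample_1, and in these 5 fits no member was called lower.

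The promoters of 3 of these genes and of the ligand gene Areg show a motif that part of the list shares. The letters TGACG are the core of the element bound by CREB and ATF family factors, and they were searched on both strands in windows of 300 bases, from 250 before to 50 after each start in RefSeq (GRCm38.p6). Fos, Fosb and Atf3 are shown because they are abundant called members whose window holds the motif, whereas the windows of Jun, Jund and Klf6, also abundant and called, hold none. Areg is shown because its change was the largest of the growth factor genes. Capitals mark every TGACG or its reverse complement, and the Areg window holds a palindrome made of both.
Fos promoter (chr12:85473640-85473939, plus strand): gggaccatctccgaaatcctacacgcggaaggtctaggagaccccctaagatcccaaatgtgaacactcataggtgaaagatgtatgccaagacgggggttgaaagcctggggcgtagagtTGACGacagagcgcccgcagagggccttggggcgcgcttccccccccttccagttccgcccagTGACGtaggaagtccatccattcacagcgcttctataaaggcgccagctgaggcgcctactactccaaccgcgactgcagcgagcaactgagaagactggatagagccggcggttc
Fosb promoter (chr7:19309996-19310295, minus strand): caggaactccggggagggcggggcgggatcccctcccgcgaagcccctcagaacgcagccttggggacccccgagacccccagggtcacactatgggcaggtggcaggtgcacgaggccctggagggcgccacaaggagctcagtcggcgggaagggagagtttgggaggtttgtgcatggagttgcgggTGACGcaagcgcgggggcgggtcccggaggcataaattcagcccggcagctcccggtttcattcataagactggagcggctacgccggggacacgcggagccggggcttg
Atf3 promoter (chr1:191183284-191183583, minus strand): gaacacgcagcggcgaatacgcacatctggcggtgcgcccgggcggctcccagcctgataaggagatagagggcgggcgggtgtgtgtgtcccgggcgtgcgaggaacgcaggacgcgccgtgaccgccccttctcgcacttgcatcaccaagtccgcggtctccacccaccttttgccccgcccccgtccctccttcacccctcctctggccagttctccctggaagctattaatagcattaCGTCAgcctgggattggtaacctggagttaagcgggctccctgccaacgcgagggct
Areg promoter (chr5:91139349-91139648, plus strand): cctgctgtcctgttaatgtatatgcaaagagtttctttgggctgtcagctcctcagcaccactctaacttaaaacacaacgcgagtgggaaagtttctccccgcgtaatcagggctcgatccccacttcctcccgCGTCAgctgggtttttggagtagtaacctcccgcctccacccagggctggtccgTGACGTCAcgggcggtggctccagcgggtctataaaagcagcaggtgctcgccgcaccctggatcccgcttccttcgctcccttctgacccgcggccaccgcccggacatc
Of the 27 members called higher, 21 had a promoter in the table, 26 windows in all, and 17 of these windows (65.4%) held TGACG, from 14 genes. Over the whole list as tested the share was 59.5% of 42 windows, compared with 28.9% of the windows of all tested genes that had one and 20.8% of all 32851 windows. Among all genes called higher it was 27.6% of 548 windows. The excess thus belonged to the list as drawn and was not seen in the genes called higher as a whole. The AP-1 site TGANTCA, a palindrome that cannot overlap with TGACG, was in 1 of the 26 windows (3.85%) against 5.57% for tested genes. These matches describe the letters in a window and show no binding.

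Genes of EGF signalling that are themselves rapidly induced rose, whereas the receptors passed no test. On the list of EGF family and receptor genes 4 of 15 tested were called higher and none lower, also with TMM scaling. The share called higher was 26.7%, against 2.81% over all genes. Areg encodes amphiregulin, an EGF receptor ligand tied to epithelial repair, and measured 30.8, 32.2 and 31.0 CPM in cKO against 3.25 and 6.5 CPM in HE (log2 fold change 2.52 ± 0.25, adjusted p = 0.00305), with the 3 cKO libraries almost equal. Hbegf, another ligand, lay at 85.6, 78.8 and 114 CPM in cKO against 31.5 and 56.0 CPM in HE (log2 fold change 1.11 ± 0.24, adjusted p = 0.0596). The feedback inhibitors Spry1 (21.5, 35.0 and 39.8 CPM against 10.1 and 12.1 CPM, log2 fold change 1.41 ± 0.26, adjusted p = 0.0401) and Errfi1 (48.3, 55.5 and 61.0 CPM against 27.6 and 28.7 CPM, log2 fold change 0.93 ± 0.15, adjusted p = 0.0256) rose with them. The receptor genes Egfr (48.8, 46.3 and 59.0 CPM against 42.8 and 42.2 CPM, log2 fold change 0.26 ± 0.15, adjusted p = 0.332), Erbb2 and Erbb3 (log2 fold changes 0.25 and 0.23, adjusted p = 0.477 and 0.411) and the receptor inhibitor Lrig1 (-0.17, 0.433) were not called. Without the library labelled Adult_HE_Sample_2 only 1 member was called and without Adult_cKO_Sample_2 2 were.

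**Figure D3:**
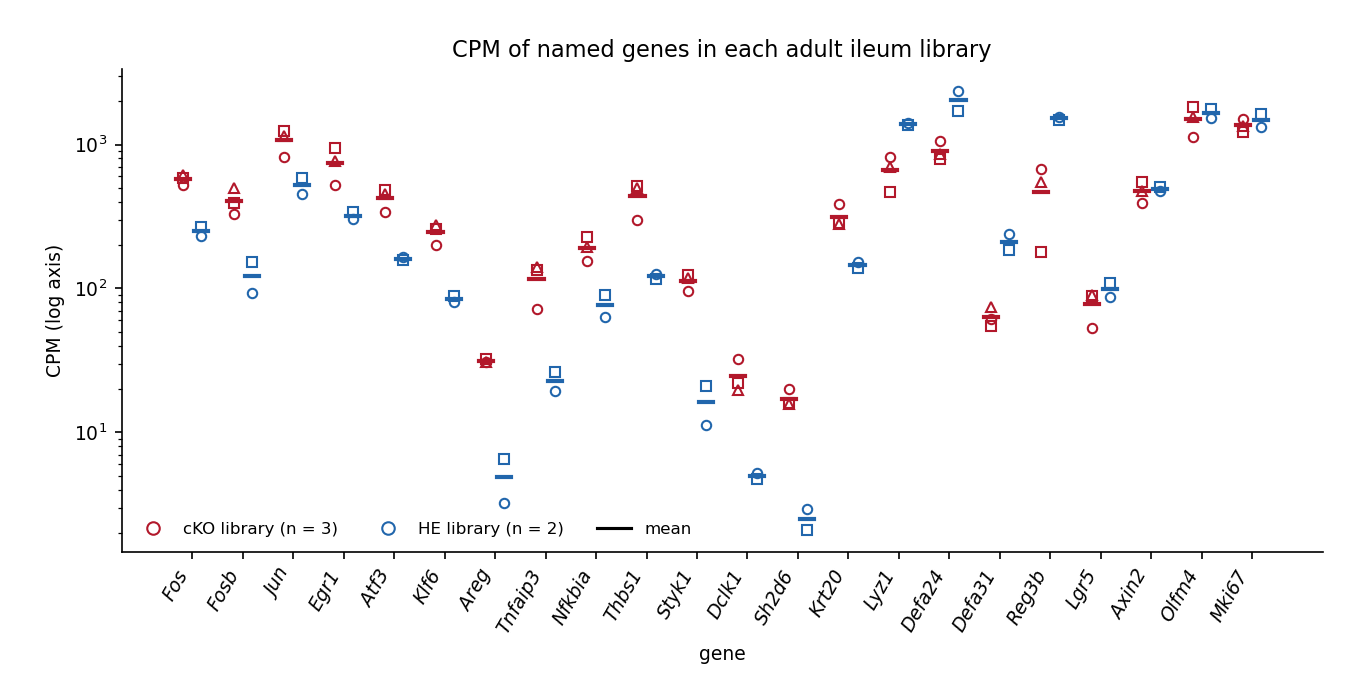
CPM on a log axis of 22 named genes in each adult ileum library, with cKO libraries in red (circle, square and triangle for the libraries labelled Adult_HE_Sample_1, Adult_cKO_Sample_1 and Adult_cKO_Sample_3), HE libraries in blue (circle and square for Adult_HE_Sample_2 and Adult_cKO_Sample_2) and a bar at each mean. From Fos to Krt20 every cKO point lies above both HE points, from Lyz1 to Reg3b below them, and the 4 stem and cycle genes at the right (Lgr5, Axin2, Olfm4, Mki67) overlap.

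Targets of NF-kB, the transcription factor of inflammatory signalling, rose in part. Of 30 tested, 11 were called higher (36.7%, against 2.81% over all genes) and none lower, with a list median of 0.60. The number called depended on the method, with 5 higher and 1 lower under TMM, 3 higher under edgeR and 7 higher under DESeq2. Tnfaip3, which encodes the feedback inhibitor A20, showed the largest change of the list at 71.8, 134 and 141 CPM in cKO against 19.5 and 26.3 CPM in HE (log2 fold change 2.24 ± 0.27, adjusted p = 0.00756). The inhibitor gene Nfkbia measured 154, 228 and 193 CPM in cKO against 63.3 and 89.9 CPM in HE (log2 fold change 1.32 ± 0.19, adjusted p = 0.0168). Ligand genes were lower in level, with Tnf at 18.6, 57.3 and 42.0 CPM in cKO against 8.45 and 14.2 CPM in HE (log2 fold change 1.61 ± 0.40, adjusted p = 0.0802) and the neutrophil chemokine Cxcl1 at 7.4, 18.1 and 10.4 CPM in cKO against 1 and 3 CPM in HE (log2 fold change 2.11 ± 0.41, adjusted p = 0.0461).

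Cxcl2, a related chemokine, had 83 reads over the cKO libraries and 3 over the HE libraries, a ratio of CPM of 8.97 with a 95% exact interval of 2.96 to 44.4 that covers counting error only. Among the genes of the NF-kB subunits, Nfkb2 was called higher. Nfkb1 differed by 0.17 (adjusted p = 0.402) and Rela by 0.25 (adjusted p = 0.308), and neither was called. Nfkbiz (81.2, 151 and 135 CPM against 67.5 and 96.4 CPM) and Tnip1 (132, 122 and 96.0 CPM against 56.1 and 94.7 CPM), further feedback genes, also missed the limits. Leaving out the library labelled Adult_HE_Sample_2 left 0 members called with limma. Without Adult_cKO_Sample_2 4 were called higher, without Adult_cKO_Sample_3 4 higher and 1 lower, without Adult_cKO_Sample_1 6 higher and without Adult_HE_Sample_1 13 higher.

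Promoters of the 2 feedback inhibitor genes are printed because they hold the kappaB element, the site bound by NF-kB, marked in capitals on whichever strand it was found.
Tnfaip3 promoter (chr10:19015361-19015660, minus strand): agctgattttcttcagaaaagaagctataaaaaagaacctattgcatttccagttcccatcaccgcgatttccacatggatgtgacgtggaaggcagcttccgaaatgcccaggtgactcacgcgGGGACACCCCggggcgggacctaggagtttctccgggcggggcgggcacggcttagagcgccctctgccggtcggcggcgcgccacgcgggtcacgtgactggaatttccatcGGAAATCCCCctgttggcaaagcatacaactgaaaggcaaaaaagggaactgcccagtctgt
Nfkbia promoter (chr12:55492598-55492897, minus strand): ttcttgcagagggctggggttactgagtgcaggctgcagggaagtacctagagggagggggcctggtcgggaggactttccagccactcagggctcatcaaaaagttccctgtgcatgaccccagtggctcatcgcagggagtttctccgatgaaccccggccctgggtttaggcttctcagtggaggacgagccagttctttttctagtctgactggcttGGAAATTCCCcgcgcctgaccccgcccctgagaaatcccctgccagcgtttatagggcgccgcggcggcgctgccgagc
The element, searched on both strands by its usual degenerate consensus, was in 8 of 12 windows (66.7%) of the list members called higher, from 6 of the 9 genes with a window. It was in 61.5% of windows of all tested members, 10.4% of windows of tested genes and 8.46% of all windows, and in 11.5% of windows of the immediate early genes called higher. The list was made up of known targets of NF-kB, so an excess of its site describes how the list was drawn and not the response.

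Some genes of tuft cells, which are rare chemosensory cells of the epithelium, rose. Of 29 tested genes 13 rose (44.8%, against 2.81% over all genes) and none fell, and the list median was 0.83. With TMM 10 rose, with edgeR 4 and with DESeq2 11. The marker kinase gene Dclk1 measured 32.2, 22.2 and 19.9 CPM in cKO against 5.2 and 4.75 CPM in HE (log2 fold change 2.08 ± 0.24, adjusted p = 0.00629), the adaptor gene Sh2d6 20.0, 15.9 and 15.7 CPM in cKO against 2.95 and 2.1 CPM in HE (log2 fold change 2.37 ± 0.24, adjusted p = 0.00384) and the lymphoid-restricted membrane protein gene Lrmp 19.9, 11.7 and 10.7 CPM in cKO against 2.3 and 1.95 CPM in HE (log2 fold change 2.22 ± 0.30, adjusted p = 0.0149). All 4 markers set for the type were called, namely Dclk1, the ion channel gene Trpm5 (36.2, 33.8 and 28.3 CPM against 18.9 and 9.8 CPM, log2 fold change 1.20 ± 0.25, adjusted p = 0.0579), the lineage factor gene Pou2f3 (8.2, 8.25 and 6.85 CPM against 2.6 and 1.95 CPM, log2 fold change 1.42 ± 0.26, adjusted p = 0.0416) and Avil (20.9, 16.3 and 14.4 CPM against 7.8 and 4.05 CPM, log2 fold change 1.43 ± 0.28, adjusted p = 0.0502). Their summed level was 69.3 to 97.4 CPM in cKO and 20.6 to 34.5 CPM in HE. In bulk RNA a larger number of cells of a type and more RNA per cell cannot be told apart.

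The taste-type signalling gene Plcb2 had the largest change of the list (21.6, 15.1 and 14.0 CPM against 4.55 and 0.35 CPM, log2 fold change 2.68 ± 0.50, adjusted p = 0.0421). Abundant list members were mixed, with Kctd12 (73.9, 75.8 and 83.6 CPM against 50.6 and 40.1 CPM, log2 fold change 0.77 ± 0.14, adjusted p = 0.0412) and Ptpn6 (39.9, 28.4 and 28.6 CPM against 19.2 and 16.45 CPM, log2 fold change 0.81 ± 0.20, adjusted p = 0.0739) called and Itpr2 (52.5, 60.1 and 67.4 CPM against 60.3 and 57.1 CPM) and Fyb (42.0, 30.7 and 25.8 CPM against 28.9 and 26.1 CPM) not. In the Lgr5-DTReGFP ileum, Dclk1 stood above both genotypes at 85.2 and 176 CPM and Sh2d6 at 79.6 and 118 CPM. The count was 3 without the library labelled Adult_cKO_Sample_2, 7 without Adult_cKO_Sample_3, 8 without Adult_HE_Sample_2, 14 without Adult_cKO_Sample_1 and 15 without Adult_HE_Sample_1.

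Part of the Paneth cell genes fell in cKO. Among 17 tested genes other than defensins 6 fell (35.3%, against 1.55% over all genes) and none rose, and the list median was -0.63. Under TMM scaling 6 fell, with edgeR 4 and with DESeq2 6. Lyz1, the Paneth lysozyme, measured 817, 472 and 695 CPM in cKO against 1422 and 1375 CPM in HE (log2 fold change -1.12 ± 0.20, adjusted p = 0.0367). Its neighbour and close copy Lyz2, whose reads can be shared with it, measured 33.0, 21.2 and 22.1 CPM in cKO against 54.2 and 48.0 CPM in HE (adjusted p = 0.0515). The antibacterial phospholipase gene Pla2g2a lay at 85.5, 79.5 and 76.9 CPM in cKO against 245 and 150.1 CPM in HE (log2 fold change -1.24 ± 0.18, adjusted p = 0.0189).

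The list held 3 more called genes. Mptx2, a Paneth pentraxin gene, measured 65.8, 22.6 and 49.1 CPM in cKO against 135 and 139 CPM in HE (log2 fold change -1.69 ± 0.35, adjusted p = 0.0542), the lectin gene Itln1 785, 589 and 613 CPM in cKO against 1306 and 1038 CPM in HE (log2 fold change -0.82 ± 0.15, adjusted p = 0.0412) and Mmp7, whose protease activates prodefensins, 266, 303 and 301 CPM in cKO against 520.0 and 388 CPM in HE (log2 fold change -0.63 ± 0.14, adjusted p = 0.0619). Ang4 overlapped between genotypes (295, 143 and 119 CPM against 456 and 185 CPM, log2 fold change -0.76 ± 0.41, adjusted p = 0.31), with the library labelled Adult_HE_Sample_1 above 1 of the HE libraries. The 26 markers of the type, defensins included, summed to 3038 to 5599 CPM in cKO and to 6330 to 8424 CPM in HE, and to 16968 and 38978 CPM in the Lgr5-DTReGFP ileum libraries, where Lyz1 alone stood at 5456 and 13187 CPM. Without the library labelled Adult_HE_Sample_2 1 of the 17 genes was called, without Adult_cKO_Sample_2 2, without Adult_cKO_Sample_3 3 and without Adult_cKO_Sample_1 6, each lower in cKO, while without Adult_HE_Sample_1 7 were lower and 1 higher.

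Alpha-defensin genes fell in 7 of 21 tested (33.3%, against 1.55% over all genes) and rose in none, with a median of -0.43. They are near-identical copies in 1 cluster on chromosome 8, so reads can be split or shared among them and each value is uncertain. The most abundant, Defa24, measured 1066, 793 and 861 CPM in cKO against 2356 and 1697 CPM in HE (log2 fold change -1.15 ± 0.17, adjusted p = 0.0178). Defa17 lay at 373, 340.2 and 244 CPM in cKO against 946 and 624 CPM in HE (log2 fold change -1.29 ± 0.21, adjusted p = 0.0271), Defa29 at 227, 152 and 147 CPM in cKO against 512 and 397 CPM in HE (log2 fold change -1.39 ± 0.19, adjusted p = 0.0158) and Defa31 at 61.2, 54.8 and 74.4 CPM in cKO against 238 and 184 CPM in HE (log2 fold change -1.72 ± 0.16, adjusted p = 0.00305). Other members did not follow genotype. Defa22 stood at 447, 43.3 and 3.75 CPM in cKO against 20.8 and 12.5 CPM in HE and Defa21 at 383, 43.4 and 0.25 CPM in cKO against 1.95 and 1.6 CPM in HE, high in the library labelled Adult_HE_Sample_1, far lower in Adult_cKO_Sample_1 and low in the other 3, and neither passed the test (adjusted p = 0.586 and 0.305).

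The same order of the cKO libraries held in Defa2, Defa20, Defa32 and Defa33, each listed at 0 in the library labelled Adult_cKO_Sample_3. Defa2, for example, had 675 reads in cKO and 0 in HE, at least 72.9-fold higher against a floor of 3 reads over the HE libraries, yet lay at 61.3, 14.8 and 0 CPM against 0 and 0 CPM and was not called (adjusted p = 0.188). Defa35, Defa25 and Defa27 showed the opposite order within cKO. Defa35 measured 20.1, 70.0 and 164 CPM in cKO against 357 and 279.9 CPM in HE (log2 fold change -2.34 ± 0.64, adjusted p = 0.0991), Defa25 0.35, 2.75 and 4.05 CPM in cKO against 14.0 and 14.0 CPM in HE (log2 fold change -2.35 ± 0.49, adjusted p = 0.0569) and Defa27 0.7, 9.75 and 14.7 CPM in cKO against 45.8 and 38.9 CPM in HE (log2 fold change -2.71 ± 0.75, adjusted p = 0.1), each lowest in the library labelled Adult_HE_Sample_1. Leaving out libraries moved the number called lower between 1, without Adult_HE_Sample_2, and 11, without Adult_HE_Sample_1, with 4 without Adult_cKO_Sample_2. Without Adult_cKO_Sample_3 5 were also called higher.

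**Figure D4:**
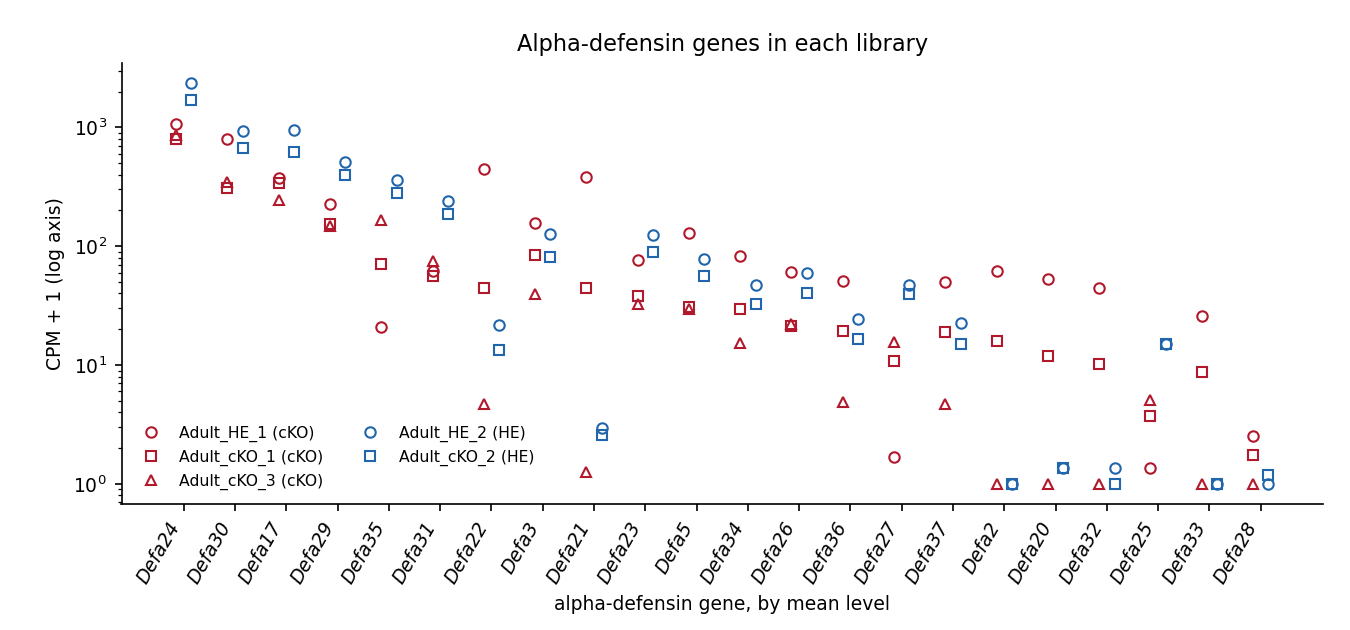
CPM + 1 on a log axis of the 22 alpha-defensin genes in each library, ordered by mean level, with cKO libraries in red and HE libraries in blue, 1 symbol for each library. The abundant genes from Defa24 to Defa31 are lower in cKO apart from some overlap in Defa30, while Defa22, Defa21, Defa2, Defa20, Defa32 and Defa33 are high in the library labelled Adult_HE_Sample_1 and at or near 0 in both HE libraries and in Adult_cKO_Sample_3, except that Defa22 reaches 20.8 CPM in HE.

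Antimicrobial genes of the wider epithelium moved both ways, with 5 of 25 tested higher and 6 lower (2 and 6 under TMM). The shares were 20% and 24%, against 2.81% and 1.55% over all genes. The lectin genes Reg3b and Reg3g, which act against Gram-positive and other bacteria at the mucosal surface, fell: Reg3b measured 673, 180.3 and 552 CPM in cKO against 1549 and 1491 CPM in HE (log2 fold change -1.90 ± 0.44, adjusted p = 0.0679) and Reg3g 675, 226 and 533 CPM in cKO against 1297 and 1146 CPM in HE (log2 fold change -1.49 ± 0.36, adjusted p = 0.075). These 2 are neighbouring copies. The goblet cell factor gene Retnlb also fell (404, 381 and 270.4 CPM against 1073 and 725 CPM, log2 fold change -1.35 ± 0.20, adjusted p = 0.0194). The lipopolysaccharide co-receptor gene Cd14 rose (32.6, 43.0 and 45.5 CPM against 12 and 17.7 CPM, log2 fold change 1.39 ± 0.21, adjusted p = 0.0213), as did the binding protein gene Lbp (11.1, 15.6 and 26.5 CPM against 5.85 and 5.45 CPM, log2 fold change 1.41 ± 0.32, adjusted p = 0.067). The most abundant member, the immunoglobulin transporter gene Pigr, overlapped (2509.5, 2632 and 2602 CPM against 2557 and 1599.7 CPM). Without the library labelled Adult_HE_Sample_2 0 were called higher and 1 lower with limma, and without Adult_cKO_Sample_2 the counts were 3 and 1.

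Enterocyte genes rose in 12 of 38 tested (31.6%, against 2.81% over all genes) and fell in none, with a list median of 0.87. Under TMM scaling 2 were called, with a median of 0.74, and with edgeR 2. With DESeq2 10 rose, with thinned reads 11 and with the receptor gene level subtracted 9. Keratin 20, a marker of differentiated surface epithelium, measured 387, 283 and 278 CPM in cKO against 153 and 139 CPM in HE (log2 fold change 1.09 ± 0.15, adjusted p = 0.016). The brush border peptidase gene Anpep lay at 228, 154 and 217 CPM in cKO against 101 and 110.2 CPM in HE (log2 fold change 0.90 ± 0.17, adjusted p = 0.0416) and the intestinal alkaline phosphatase gene Alpi at 22.5, 11.4 and 13.7 CPM in cKO against 6.5 and 6.3 CPM in HE (log2 fold change 1.13 ± 0.29, adjusted p = 0.0824). The sucrase-isomaltase gene Sis was high in 1 library, at 325, 64.6 and 99.9 CPM in cKO against 33.8 and 37.1 CPM in HE, and was not called (adjusted p = 0.104). The cobalamin receptor gene Cubn (11.9, 12.9 and 25.2 CPM against 0.65 and 3.35 CPM, log2 fold change 2.64 ± 0.44, adjusted p = 0.0304) had the largest change of the list. The most abundant list member, Mgam, overlapped (1652, 1491 and 1788 CPM against 1535 and 1798 CPM), and Fabp1, a villus marker, was near 0 in all 5 libraries, at 0.35 to 1.25 CPM. Summed enterocyte markers were 265 to 632 CPM in cKO and 153 to 189 CPM in HE. The count was 0 with limma without the library labelled Adult_HE_Sample_2, 4 without Adult_cKO_Sample_2, 4 without Adult_cKO_Sample_3 and 19 without Adult_cKO_Sample_1.

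Goblet genes moved both ways. Of 20 tested 4 rose (20%) and 3 fell (15%), against 2.81% and 1.55% over all genes. Under TMM 2 rose and 2 fell, and with edgeR 1 rose and 2 fell. The mucin gene Muc2, the most abundant, overlapped (3656, 5074 and 5575 CPM against 6176 and 3133 CPM, log2 fold change 0.09 ± 0.27, adjusted p = 0.869). The called ones included Capn9 (37.5, 51.5 and 34.1 CPM against 15.6 and 11.2 CPM, log2 fold change 1.54 ± 0.22, adjusted p = 0.0164) and Clca1 (1166, 1236 and 1052 CPM against 846 and 328 CPM, log2 fold change 1.12 ± 0.31, adjusted p = 0.0988) above HE and Muc3 (147, 44.6 and 114 CPM against 268 and 239 CPM, log2 fold change -1.47 ± 0.39, adjusted p = 0.0939) below it. Of 27 enteroendocrine genes 3 were called higher (11.1%, against 2.81% over all genes), each a peptide hormone gene at low level. Somatostatin (Sst) had 288 reads in cKO and 1 in HE (8.65, 11.1 and 12.1 CPM against 0 and 0.2 CPM), a ratio of CPM of 93.3 with a 95% exact interval of 16.6 to 3699. Nts, neurotensin, had 116 reads against 0, at least 12.5-fold higher against the same floor of 3 reads, and Cck, cholecystokinin, measured 11.3, 18.9 and 11.9 CPM in cKO against 2.6 and 5.45 CPM in HE (log2 fold change 1.60 ± 0.32, adjusted p = 0.0519). The general endocrine genes Chga (48.1, 174 and 121 CPM against 134 and 94.0 CPM) and Chgb (216, 695 and 406 CPM against 545 and 305 CPM) overlapped, and summed endocrine markers were 288 to 927 CPM in cKO and 410 to 688 CPM in HE. Without the library labelled Adult_HE_Sample_1 13 endocrine genes were called higher and without Adult_HE_Sample_2 1, while goblet genes were 0 higher and 1 lower without Adult_cKO_Sample_2 and 6 higher without Adult_HE_Sample_2.

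**Figure D5:**
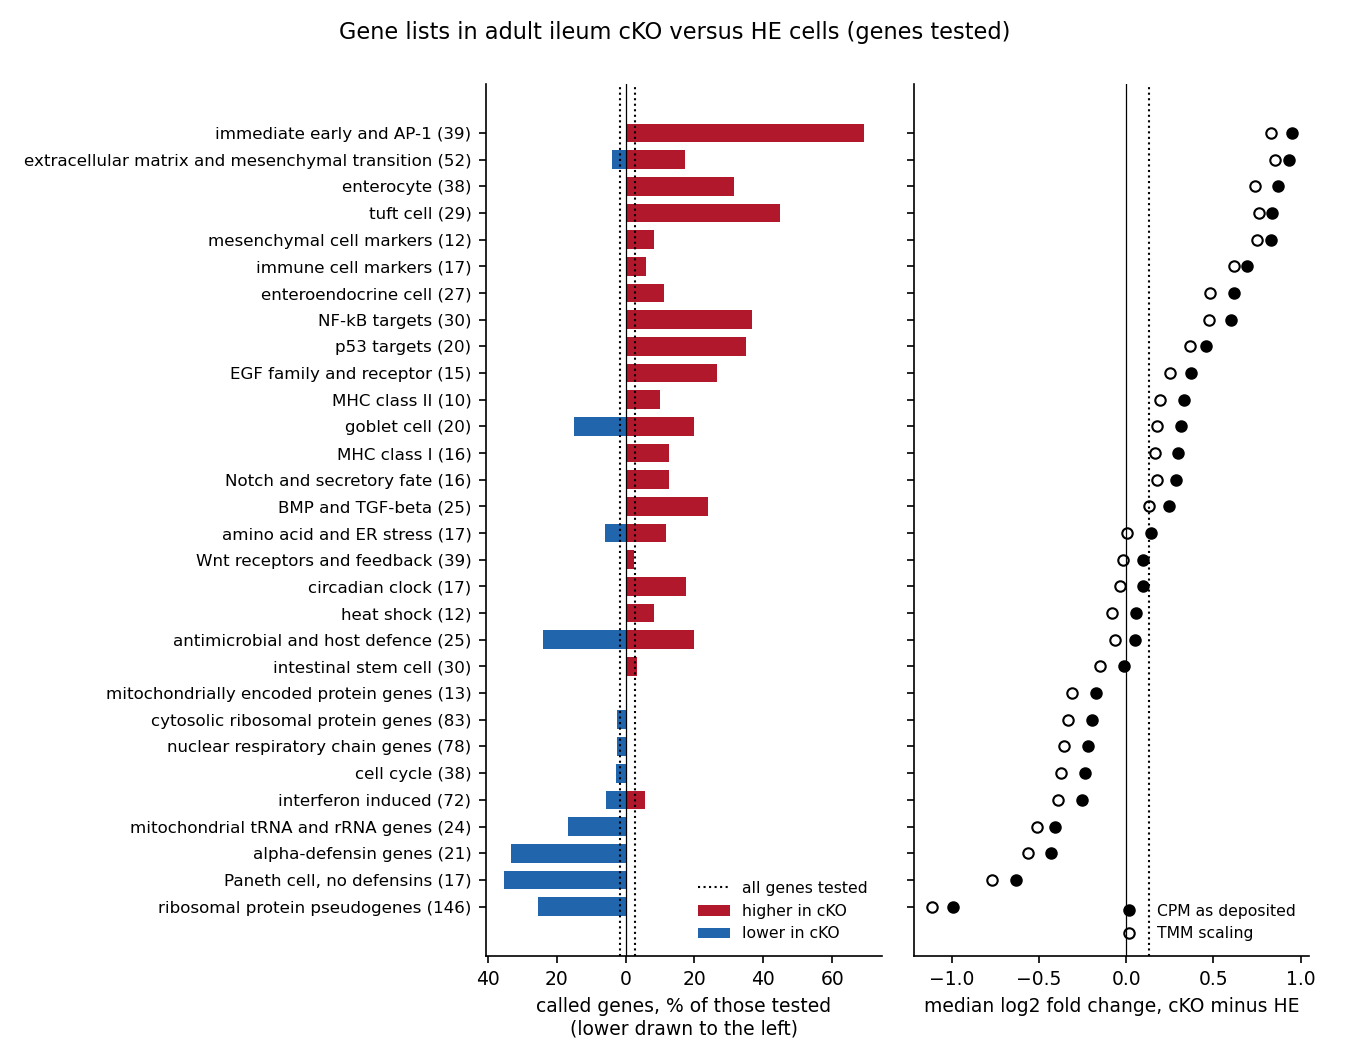
Left, share of tested genes called higher (red, to the right) and lower (blue, to the left) in cKO for each gene list with at least 10 tested genes, whose number stands in parentheses, with dotted lines at the 2.81% and 1.55% of all tested genes. Right, the median log2 fold change of each list with CPM as deposited (filled) and with TMM scaling (open), the dotted line marking 0.13 for all genes; 27 of 39 immediate early genes are called higher, and Paneth, defensin and ribosomal pseudogene lists have their calls on the lower side.

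Genes of the stem cell state and of Wnt signalling showed calls at or near the background share. Of 30 stem cell genes 1 was called, the telomerase gene Tert (13.6, 15.8 and 12.2 CPM against 6.5 and 7.2 CPM, log2 fold change 0.91 ± 0.22, adjusted p = 0.073), and under TMM scaling 0 were higher and 1 lower. The list median was -0.01. Olfm4 measured 1136, 1821 and 1552 CPM in cKO against 1523 and 1776 CPM in HE (log2 fold change -0.16 ± 0.18, adjusted p = 0.648), Ascl2, the stem cell master factor gene, 26.0, 31.7 and 28.9 CPM in cKO against 37.7 and 32.8 CPM in HE (log2 fold change -0.28 ± 0.16, adjusted p = 0.331) and the Wnt target gene Axin2 393, 551 and 478 CPM in cKO against 474 and 505 CPM in HE (log2 fold change -0.06 ± 0.14, adjusted p = 0.843). Olfm4 and Axin2 overlapped between genotypes, while Ascl2 lay lower in every cKO library and did not pass. The 5 stem markers summed to 1768 to 2746 CPM in cKO and to 2318 to 2630 CPM in HE.

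Of 39 Wnt receptor and feedback genes 1 was called, the secreted antagonist gene Sfrp5 (8.3, 22.2 and 12.5 CPM against 5.2 and 2.65 CPM, log2 fold change 1.58 ± 0.39, adjusted p = 0.077). Lgr4, the relative of Lgr5 that also binds R-spondins, measured 213, 179 and 241 CPM in cKO against 249.95 and 255 CPM in HE (log2 fold change -0.27 ± 0.13, adjusted p = 0.28), while Lgr6 had 41 reads in cKO and 2 in HE, a ratio of 6.64 with a counting interval of 1.73 to 56.7, and was not called (adjusted p = 0.219). The ligase genes Rnf43 (168, 275 and 247 CPM against 198 and 244 CPM, log2 fold change 0.03 ± 0.19, adjusted p = 0.936) and Znrf3 (48.6, 63.8 and 60.6 CPM against 57.4 and 57.4 CPM, log2 fold change -0.00 ± 0.15, adjusted p = 0.993) overlapped. Standard errors of these 4 genes and of Lgr5 lay at 0.13, 0.39, 0.19, 0.15 and 0.22 on the log2 scale. A call needed a difference of several standard errors: Lgr4 at -0.27 ± 0.13 missed the limits and Sfrp5 at 1.58 ± 0.39 passed. Differences larger than 1 standard error could therefore also have been missed.

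Proliferation genes were called in 1 of 38, Pclaf, a PCNA-binding factor gene, which fell (77.1, 64.2 and 68.7 CPM against 104 and 109 CPM, log2 fold change -0.60 ± 0.13, adjusted p = 0.0556). That is 2.63% of the list, near the 1.55% called lower over all genes. The list median was -0.24, and 3 of its 38 fold changes were above 0, against 12448 of 19249 over all genes. For 17 of the 38 every cKO library lay below both HE libraries, which held for 12.9% of all tested genes. No member was called without either HE library or without Adult_cKO_Sample_1 or Adult_cKO_Sample_3, and 4 fell without Adult_HE_Sample_1. Mki67 measured 1496, 1230.2 and 1352 CPM in cKO against 1317 and 1625 CPM in HE (log2 fold change -0.11 ± 0.13, adjusted p = 0.656), with overlap, and the replication helicase gene Mcm6 254, 259 and 246 CPM in cKO against 299 and 319 CPM in HE (log2 fold change -0.29 ± 0.10, adjusted p = 0.155), without it.

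Genes of fate signalling outside Wnt showed a few calls, all higher. On the Notch and secretory fate list 2 of 16 rose, the ligand gene Dll1 (114, 193 and 130.1 CPM against 82.1 and 74.2 CPM, log2 fold change 0.86 ± 0.20, adjusted p = 0.0688) and the secretory lineage factor gene Atoh1 (73.3, 93.7 and 90.9 CPM against 64.2 and 38.9 CPM, log2 fold change 0.76 ± 0.21, adjusted p = 0.0957), while Notch1 (145, 176 and 194 CPM against 118 and 164 CPM) and Hes1 (74.4, 91.2 and 81.7 CPM against 62.9 and 72.3 CPM) were not called. The share called higher was 12.5%, against 2.81% over all genes. Under TMM and edgeR 0 of these 16 passed, and with DESeq2 1. On the BMP and TGF-beta list 6 of 25 rose (24%, against 2.81% over all genes), 5 under TMM, 1 with edgeR and 5 with DESeq2. They included Id2, a direct BMP target (26.2, 30.1 and 27.6 CPM against 13.7 and 11.2 CPM, log2 fold change 1.11 ± 0.18, adjusted p = 0.0261), the inhibitory Smad6 (9.4, 9 and 9.25 CPM against 0.65 and 3.7 CPM, log2 fold change 1.88 ± 0.40, adjusted p = 0.0609), the ligand gene Bmp2 (8.55, 8.4 and 11.5 CPM against 2.3 and 3.7 CPM, log2 fold change 1.40 ± 0.28, adjusted p = 0.0504) and Tgfbi (47.6, 21.6 and 36.5 CPM against 10.1 and 13.2 CPM, log2 fold change 1.46 ± 0.29, adjusted p = 0.0515). The receptor genes Bmpr1a and Bmpr2 differed by -0.01 and 0.24 and were not called (adjusted p = 0.963 and 0.305). Without 1 library, 1 to 7 of the BMP and TGF-beta list were called, fewest without Adult_cKO_Sample_3 and 2 each without the 2 HE libraries.

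Stress genes were called in part. Among p53 targets 7 of 20 rose (35%, against 2.81% over all genes), but 2 under TMM, 2 with edgeR and 4 with DESeq2, where 1 fell. They included the apoptosis genes Pmaip1 (28.2, 32.3 and 33.4 CPM against 10.1 and 17.0 CPM, log2 fold change 1.19 ± 0.22, adjusted p = 0.0419) and Bbc3 (8.1, 16.1 and 15.8 CPM against 3.6 and 6.15 CPM, log2 fold change 1.26 ± 0.33, adjusted p = 0.0928) and the growth arrest gene Gadd45a (25.7, 29.6 and 29.4 CPM against 13.7 and 13.2 CPM, log2 fold change 1.02 ± 0.17, adjusted p = 0.0297), whereas Mdm2 (66.2, 89.8 and 67.9 CPM against 75.6 and 59.5 CPM, log2 fold change 0.14 ± 0.17, adjusted p = 0.664) and Ccng1 (62.6, 59.5 and 64.0 CPM against 51.3 and 52.9 CPM, log2 fold change 0.25 ± 0.12, adjusted p = 0.274), which p53 also induces, were not called. Without the library labelled Adult_HE_Sample_2 0 p53 targets passed with limma, without Adult_cKO_Sample_2 or Adult_cKO_Sample_3 1 each, without Adult_cKO_Sample_1 3 higher and 1 lower. Of 12 heat shock genes 1 rose, the co-chaperone gene Dnajb1 (109, 139 and 117 CPM against 66.2 and 78.1 CPM, log2 fold change 0.75 ± 0.14, adjusted p = 0.0421). Of 17 genes of amino acid and ER stress 2 rose and 1 fell (5.88%, against 1.55% called lower over all genes). Shares called higher were 8.33% of heat shock, 11.8% of amino acid and ER stress and 17.6% of clock genes, against 2.81%. Each of these shares rests on a few genes. Of 17 clock genes 3 rose, led by the repressor gene Nr1d1 at 50.7, 92.3 and 77.1 CPM in cKO against 21.4 and 25.2 CPM in HE (log2 fold change 1.58 ± 0.23, adjusted p = 0.0174), whereas of the core genes Clock overlapped (158, 145 and 176 CPM against 144 and 154 CPM) and Arntl did not but missed the limits (54.8, 51.9 and 60 CPM against 39.3 and 50.4 CPM, log2 fold change 0.31 ± 0.15, adjusted p = 0.266).

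Extracellular matrix and mesenchymal transition genes had a median of 0.93, and 9 of 52 were called higher (17.3%) and 2 lower (3.85%). With edgeR the counts were 4 and 2 and with DESeq2 10 and 5. The called and abundant gene was Thbs1, thrombospondin, at 301, 515 and 501 CPM in cKO against 127 and 116 CPM in HE (log2 fold change 1.81 ± 0.21, adjusted p = 0.00629). Emp1 (18.3, 9.5 and 20.5 CPM against 3.25 and 4.05 CPM, log2 fold change 1.82 ± 0.32, adjusted p = 0.037) and Pxdn, a peroxidase that crosslinks basement membrane collagen (16.1, 36.5 and 34.3 CPM against 0 and 1.05 CPM, log2 fold change 4.30 ± 0.41, adjusted p = 0.00305), were others of large change, together with Cyr61 given above. The Lgr5-DTReGFP ileum libraries had Thbs1 at 385 and 816 CPM and Emp1 at 9.75 and 4.15 CPM. Pxdn differed widely between them, at 2.7 and 33.2 CPM. Collagens were near the limit of detection, with Col1a1 at 2.1, 7.9 and 8.95 CPM in cKO against 1 and 2.3 CPM in HE and Col3a1 at 3.25, 4.45 and 5.15 CPM in cKO against 0.65 and 3.7 CPM in HE, and not called. Summed markers of mesenchyme moved the same way, at 8.55 to 26.95 CPM in cKO and 3.65 to 10.9 CPM in HE, and receptor genes per kilobase stood at 0.0304, 0.0539 and 0.125 CPM in cKO and 0.0203 and 0.0178 CPM in HE. With the receptor gene level subtracted 8 of the list were higher and 2 lower, and with thinned reads 9 and 2. Of the longer marker lists, 1 of 12 mesenchymal (8.33%) and 1 of 17 immune genes (5.88%) were called higher, against 2.81% over all genes. The matrix list had 28 genes called higher without the library labelled Adult_HE_Sample_1, without Adult_HE_Sample_2 2, and without Adult_cKO_Sample_2 or Adult_cKO_Sample_3 4 each.

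Interferon-induced genes were called 4 higher and 4 lower of 72 tested, with a list median of -0.26. The share was 5.56% each way, against 2.81% and 1.55% over all genes. Ifi27l2a measured 38.5, 14.0 and 3.85 CPM in cKO against 153 and 57.2 CPM in HE (log2 fold change -2.74 ± 0.72, adjusted p = 0.0896) and Ifitm3, which blocks virus entry, 139.5, 179.8 and 138 CPM in cKO against 385 and 259 CPM in HE (log2 fold change -1.06 ± 0.18, adjusted p = 0.0314). Trim30a (15.7, 8.25 and 17.8 CPM against 92.1 and 27.9 CPM, log2 fold change -1.86 ± 0.45, adjusted p = 0.0746) fell too, with a wide gap between the HE libraries. The tryptophan catabolic enzyme gene Ido1 (5.2, 4.1 and 10.6 CPM against 1 and 0.2 CPM, log2 fold change 2.21 ± 0.41, adjusted p = 0.0412) and the GTPase gene Gbp2 (14.2, 16.4 and 21.8 CPM against 3.9 and 6.65 CPM, log2 fold change 1.57 ± 0.27, adjusted p = 0.0348) rose. Interferon-induced genes numbered 15 lower and 1 higher without the library labelled Adult_cKO_Sample_2, and without Adult_HE_Sample_2 1 was higher and the list median turned to 0.20. The summed level of the list was 4868 to 5507 CPM in cKO and 7986 and 4661 CPM in HE, so that the genotypes overlapped. Among genes of antigen presentation, 2 of 16 of class I (12.5%) and 1 of 10 of class II (10%) were called higher, against 2.81% over all genes. Ciita, the master regulator of MHC class II, rose (125, 167 and 164 CPM against 86.6 and 88.9 CPM, log2 fold change 0.77 ± 0.14, adjusted p = 0.0412), while its targets Cd74 (1099, 1207 and 1154 CPM against 896 and 968 CPM, log2 fold change 0.31 ± 0.11, adjusted p = 0.149) and H2-Aa (401, 359 and 335 CPM against 388 and 399.5 CPM, log2 fold change -0.11 ± 0.11, adjusted p = 0.581) did not pass. H2-Eb1 was lower in the library labelled Adult_HE_Sample_1 than in the other cKO libraries, at 56.6, 227 and 189.7 CPM in cKO against 35.7 and 49.7 CPM in HE, and was not called.

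Ribosomal protein pseudogenes were called lower in 37 of 146 tested (25.3%, against 1.55% over all genes) and higher in none, with a median of -0.99. Processed pseudogenes of all kinds were called in 11.8% of 1172, 131 lower and 7 higher. Of 83 genes on the cytosolic ribosomal protein list 2 were called lower, Rps21 (203, 219.6 and 148 CPM against 333 and 309 CPM, log2 fold change -0.77 ± 0.16, adjusted p = 0.0571) and Rps3a2, itself annotated as a processed pseudogene, and the list median was -0.19. Reads of such copies can be shared with the parent gene, so these values are uncertain. Rps16-ps2, for example, measured 151, 136 and 84.6 CPM in cKO against 315 and 246 CPM in HE (log2 fold change -1.20 ± 0.22, adjusted p = 0.0418) and Rpl10a-ps1 148, 183 and 91.3 CPM in cKO against 355 and 247 CPM in HE (log2 fold change -1.13 ± 0.26, adjusted p = 0.0679), while the intact gene Rplp0 measured 812, 874 and 868 CPM in cKO against 879 and 915 CPM in HE (log2 fold change -0.08 ± 0.10, adjusted p = 0.695). Both pseudogenes were lowest in the library labelled Adult_cKO_Sample_3. Across the 146 tested ribosomal protein pseudogenes DESeq2 called 54 lower. The number called lower was 0 with limma without either HE library, 9 with edgeR, and 67 without Adult_cKO_Sample_1. Of 78 nuclear respiratory chain genes 2 fell, and none of 13 mitochondrial protein genes was called, with mt-Co1 at 2283, 2069 and 2563 CPM in cKO against 2439 and 2371 CPM in HE, while 4 of 24 mitochondrial tRNA and rRNA genes fell. Shares called lower were 2.41% for the cytosolic ribosomal protein list, 2.56% for the respiratory chain and 16.7% for mitochondrial tRNA and rRNA. Over all genes 1.55% were called lower.

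Outside these lists the naming rule gave genes of high fold change with less familiar roles in the crypt. Apol10a, of the apolipoprotein L family, measured 105, 30.7 and 65.8 CPM in cKO against 2.3 and 1.6 CPM in HE (log2 fold change 4.37 ± 0.41, adjusted p = 0.00305), with a wide range within cKO. Styk1, a receptor kinase-like gene, lay at 95.7, 123 and 118 CPM in cKO against 11.4 and 21.0 CPM in HE (log2 fold change 2.77 ± 0.23, adjusted p = 0.00181), and in the Lgr5-DTReGFP ileum at 106 and 117 CPM, near the cKO values. The vasoconstrictor peptide gene Edn1 (19.8, 39.3 and 41.1 CPM against 1.3 and 11.4 CPM, log2 fold change 2.62 ± 0.59, adjusted p = 0.0649) and the semaphorin gene Sema7a (23.4, 9.4 and 61.8 CPM against 1 and 6.15 CPM, log2 fold change 2.73 ± 0.70, adjusted p = 0.0849) varied within each genotype. Lower genes included Rims2, known for synaptic vesicle release (17.45, 39.0 and 17.1 CPM against 108 and 120.4 CPM, log2 fold change -2.28 ± 0.30, adjusted p = 0.0143), Fndc8 (4.9, 3.1 and 3.05 CPM against 19.8 and 12.1 CPM, log2 fold change -1.84 ± 0.30, adjusted p = 0.0285) and the elastase gene Cela1 (3, 2.85 and 2.85 CPM against 12 and 11.9 CPM, log2 fold change -1.73 ± 0.25, adjusted p = 0.0168).

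Immunoglobulin transcripts were present in 2 cKO libraries above all. Igkc, the kappa light chain constant region, had 433 reads in cKO and 2 in HE, lying at 27.7, 1.65 and 17.1 CPM against 0 and 0.35 CPM, a ratio of CPM of 70.2 (counting interval 19.3 to 581). Ighg2b had 419 reads against 1, at 27.9, 1 and 16.0 CPM against 0 and 0.2 CPM, a ratio of 136 (24.2 to 5376). Igkc was called (adjusted p = 0.0807) and Ighg2b was not (adjusted p = 0.104). The plasma cell gene Jchain stood at 0.6, 0.25 and 2.45 CPM in cKO and at 0 in HE, and the pan-leukocyte gene Ptprc at 3.65, 2.5 and 9.55 CPM against 1.65 and 2.3 CPM.

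The 3 genes of smallest p were not protein coding. Gm43305, a processed transcript on chromosome 14 (GRCm38, chr14:54292443-54297456, minus strand), measured 0.35, 1.15 and 0.75 CPM in cKO against 164 and 291 CPM in HE (log2 fold change -7.00 ± 0.30, adjusted p = 2.29e-05), and the Lgr5-DTReGFP ileum had 23.6 and 12.4 CPM. Gm22513, annotated as a small nuclear RNA on chromosome 12 (chr12:54696782-54696945, plus strand), measured 47.3, 48.7 and 50.3 CPM in cKO against 3.9 and 2.3 CPM in HE (log2 fold change 3.63 ± 0.21, adjusted p = 0.000187). Gm4875, a processed pseudogene on chromosome 6 (chr6:117997207-117997992, plus strand), had 811 reads in cKO and 0 in HE, at least 87.6-fold higher against the floor of 3 reads, at 37.0, 19.1 and 32.2 CPM against 0 and 0 CPM. Its reads could stem from a parent copy, which makes it uncertain.

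The adult change was set against that in the embryo, where GFP-positive cells of Lgr5-DTReGFP knockout and heterozygous fetuses at E16.5 were sorted as pools. That comparison differs in age, knock-in line, germline rather than induced loss, and in having 2 pools for each genotype of 1275951 to 2611302 reads. The difference between the adult and the E16.5 effect was called for 811 of 20839 genes (3.89%), 587 of them above 0 (2.82%) and 224 below (1.07%). The pools of each number share a litter by the labels, and with litter as a block 990 genes were called. Among 291 named genes 80 were called, but many of these were named for their adult change, so that count is a description. Without 1 library the count ran from 38, without Adult_HE_Sample_2, to 2099, without heterozygous pool 2. Chemokine genes were among those with the largest difference: Cxcl1 had 362 and 128 CPM in heterozygous and 57.5 and 63.2 CPM in knockout E16.5 pools, a log2 fold change of -1.82 that did not pass there, against 2.11 in the adult (difference 3.93 ± 0.62, adjusted p = 0.0172). Defa29 had 8.65 and 7.1 CPM in heterozygous and 59.8 and 22.3 CPM in knockout pools, a change of 2.09 that did not pass at E16.5, against -1.39 in the adult (difference -3.48 ± 0.45, adjusted p = 0.00834).

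With the genotypes of the deposited labels in place of the published ones, 0 of 19249 genes were called by limma, with 863 at an unadjusted p under 0.05, compared with 4158 by the published genotypes. On recovered reads edgeR called 0 and DESeq2 2 by the labels. In this grouping Fos was no longer separated, since the library labelled Adult_HE_Sample_1 at 525 CPM stood among the HE mice and Adult_cKO_Sample_2 at 267 CPM among the cKO mice. Lgr5 then differed by 0.49 (adjusted p = 0.866). By the labels both HE libraries were male and all cKO libraries female, so that sex and genotype cannot be told apart in this grouping. Each call given above rests on the published genotypes of these 2 libraries.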

How the data were processed

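Cells positive for GFP and Tomato were sorted from adult ileal crypts, and RNA libraries were made with a low-input kit and sequenced as paired ends. Per the labels and the submitters' processing notes, the authors used Trimmomatic 0.36, STAR 2.5.3a and HTSeq 0.9.1 with mouse GRCm38.p4. The deposited values are CPM for each gene over the whole table of 52636 genes, printed in steps of 0.05, and nearly every value fell on whole multiples of 1 read (99.8% to 99.9%), from which reads were recovered for the count alternatives. The deposited series also holds columns of other lines and ages, of which the E16.5 pools and the Lgr5-DTReGFP ileum libraries were used.

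A gene was tested when 2 or more of the 5 libraries reached 1 CPM and its GRCm38 coordinates lay outside X and Y (147 genes of the table had none). Tests were made on log2(CPM + 1) with limma 3.58.1 (R 4.3.3, lmFit and eBayes with trend, two-sided, Benjamini-Hochberg), and genes were called at a false discovery rate of 0.1 and a fold change of 1.5. The E16.5 difference was a contrast in 1 fit of 9 libraries. Heterozygous and knockout E16.5 pools of the same number came from 1 litter per the labels, and deviations of same-litter pools from their group means correlated at -0.019. The test was run on simulated data first. Alternatives were the deposited labels, pseudocount 0.1, other filters, TMM, edgeR 4.0.16, DESeq2 1.42.0, a fit of all 15 sorted-cell libraries, other chromosomes and limits, and leaving out each library. A sex term, thinning, subtraction of receptor gene level and the litter as a block were added after seeing the data. Genes named are the 10 of highest and lowest fold change among called genes of at least 5 CPM without overlap (names that begin with Gm or AC or AL and a digit, end in Rik or hold -ps left out), up to 4 called and up to 6 most abundant genes of each list, stem and cell type markers, and the 3 of smallest p. The members and lists were chosen with earlier results of these data known. Low-count ratios use recovered reads. Libraries of 3084694 to 9984676 reads limit precision for low genes, and the intervals and floors cover counting error only. Promoter windows are from RefSeq (GRCm38.p6).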

Additional observations from a re-analysis of the deposited data

Results flagged for a closer look

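The genotype effect in the adult differed from that at E16.5, by the test of the difference itself, in 80 of 291 named genes, compared with 3.89% of all genes. Many of the 80 were named for a large adult change, which favours a large difference, so the count is a description. The 10 largest differences are given on the log2 scale. The adult effect was lower for Gm43305 (-6.43), Defa27 (-4.38) and Defa29 (-3.48). It was higher for Gm4875 (5.14), Apol10a (4.80), Pxdn (4.73), Apoa4 (4.09), Cxcl1 (3.93), Cxcl2 (3.85) and Sst (3.83). The lipid transport gene Apoa4 stood at 444 and 247 CPM in heterozygous and 135 and 77.1 CPM in knockout pools at E16.5, and at 9.4, 19.1 and 11.1 CPM against 0 and 5.6 CPM in the adult. Pxdn was present in all 4 embryonic pools, at 43.2 and 26.8 CPM in heterozygous and 21.9 and 28.6 CPM in knockout, whereas Apol10a reached 0.8 CPM at most there. Age, line and the way Lgr5 was lost differ between the 2 experiments and cannot be told apart.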

How the results depend on the processing

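The number of called genes, 839, became 0 by the deposited labels, 18 with every nonzero gene tested, 417 at a mean of at least 10 CPM, 554 with TMM, 227 with edgeR, 1370 in the fit of 15 libraries and 228 at a false discovery rate of 0.05 with no fold limit. Leaving out 1 library gave 90 to 2103. The lists kept few calls with every nonzero gene tested: 2 of 40 immediate early genes, 1 of 32 tuft genes and 0 of 34 NF-kB targets. In that setting 0 of 17 Paneth genes other than defensins and 0 of 39 enterocyte genes were called. By the labels 0 genes were called with limma, and 839 with published genotypes, 2 with DESeq2, 2 in the fit of 15 libraries, 10 with all chromosomes, 0 to 3 leaving out 1 library, and 3 with the replicate number as a block. Sex follows genotype by the labels, and the fit with all chromosomes lets in genes on X and Y. The labels' numbers do not establish pairs: deviations from group means correlated at 0.164 and 0.421 for the 2 same-numbered pairs. For pairs of unlike number they ran from -0.421 to 0.387, which overlaps these values. By the published genotypes no number is shared across genotypes. For the adult minus E16.5 difference, 811 became 0 by the labels and 359 at a mean of at least 10 CPM, and 38 to 2099 without 1 library. With the litter of the E16.5 pools as a block it was 990, and the 10 largest named differences stayed called. Of 122 called named genes, 16 changed sign by the labels: Apol10a (-0.081), Igkc (-0.42), Plcb2 (-0.70), Defa25 (0.55), Defa35 (0.77), Rhoj (0.22), Lrmp (-0.13), Dclk1 (-0.028), Ptpn6 (-0.21), Trpm5 (-0.29), Nts (-0.10), Clca1 (-0.40), Krt20 (-0.13), Tgfbi (-0.019), Avil (-0.33) and Alpi (-0.27). The difference for Gm43305 was then 0.037. None changed sign under the other settings, although at a mean of at least 10 CPM only part of them were tested, 78 called and 22 not. The causes were not tested, but the labels move 2 libraries between genotypes and leaving out a library leaves fewer samples. In the shallowest library, of 3084694 reads, 1 read is 0.324 CPM, which limits what can be said of genes near 1 CPM.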

Other observations

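Several features outside the gene lists differed widely between libraries, and they were picked after their values were seen. Gm10800 and Gm10801, short gene models next to each other on chromosome 2, measured 116, 249.6 and 269 CPM against 11.1 and 0.9 CPM and 25.4, 56.3 and 56.2 CPM against 5.2 and 0.2 CPM, and in the Lgr5-DTReGFP ileum libraries 512 and 3807 CPM and 39.0 and 474 CPM. Both were called (adjusted p = 0.00709 and 0.0189). Gm8979, an unprocessed pseudogene on chromosome 7, measured 558, 0.9 and 1.45 CPM against 436 and 528 CPM: it was present in the library labelled Adult_HE_Sample_1 and in both HE libraries and nearly absent from the other 2 cKO libraries. It was not called (adjusted p = 0.178).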
